A study of Mus musculus with 24 samples.

Results

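The release of arachidonic acid from membrane lipids, and its return to them, was followed at 10 mouse genes: Pla2g4a, Pla2g6, Pla2g15, Pla2g7, Pla2g2d, Pla2g5, Dagla, Daglb, Mgll and Lpcat2. Every consensus ATAC-seq peak that overlapped the body of one of these genes or the 20 kb on either side of it was taken, on the mm10 build with the GENCODE vM21 annotation, and was given to the nearest of the 10 genes. This gave 182 of 184158 consensus peaks, from 5 at Pla2g2d to 43 at Pla2g4a. Of these, 175 held enough counts to be tested. The 7 that did not were 2 peaks at Lpcat2 and 1 peak each at Pla2g4a, Pla2g6, Pla2g7, Pla2g2d and Mgll.

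Arachidonic acid is stored in membrane phospholipids and has to be cut out before cyclooxygenases and lipoxygenases can turn it into prostaglandins and leukotrienes. Phospholipases A2 do this directly, with the calcium-dependent cytosolic enzyme encoded by Pla2g4a as the main one in activated macrophages. A further route runs through diacylglycerol, which Dagla and Daglb cut to the endocannabinoid 2-arachidonoylglycerol and Mgll then splits into arachidonic acid and glycerol. Lpcat2 works in the other direction, adding acyl groups to lysophospholipids and making platelet-activating factor (PAF).

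Chromatin accessibility was measured by ATAC-seq, which reads out where a transposase can insert into DNA, in bone marrow-derived macrophages (BMDMs) of young adult mice of either sex. WT animals were C57/B6/J, and AhR-KO animals carried the B6.129-Ahr tm1Bra/J allele, which disrupts the gene of the aryl hydrocarbon receptor (AhR), a ligand-activated transcription factor, in the whole body. Both kinds of marrow were grown with 10% serum, 10 ng/ml GM-CSF and 2 ng/ml TGF-β towards alveolar-like macrophages, and were left unstimulated or given lipopolysaccharide (LPS, a bacterial cell wall component) on day 6 at 97 EU/ml for 24 h, with 5 µM of a calcium ionophore for the last 10 min. The labels attach this whole treatment text to all 24 libraries, so that the unstimulated cultures are known by their group name only. Each of the 4 groups had 6 libraries. The libraries of a group came from separate animals of a single experiment, and whether an animal gave both an unstimulated and an LPS culture is not given in the sources used here.

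The total count in peaks ran from 8536838 to 34598345 read pairs per library. The shallowest library was in the unstimulated WT group, and levels are given below as CPM, the count scaled to a fixed library total. The peak at the transcription start site (TSS) of Ahr was lower in AhR-KO libraries, with group medians of 22.3 and 19.9 CPM in unstimulated and LPS-stimulated WT against 13.1 and 15.1 CPM in AhR-KO, but it lies at the first exon, and no value here checks the disruption itself. TSS peaks of the 5 macrophage markers Csf1r, Adgre1, Cd68, Itgam and Mertk summed to 85.3 to 150.7 CPM per library. Those of the 5 alveolar macrophage markers Siglecf, Pparg, Car4, Marco and Chil3 summed to 36.2 to 81.2 CPM. None of the 3 T cell and 3 B cell markers had a TSS peak. Without LPS, the macrophage sums ran from 96.9 to 107.0 CPM in WT and from 111.9 to 150.7 CPM in AhR-KO. The alveolar sums ran from 51.6 to 63.1 CPM and from 65 to 81.2 CPM, so the genotypes did not overlap in either list. After LPS they overlapped, at 90.4 to 100.4 and 85.3 to 115.9 CPM (macrophage) and at 36.2 to 47.1 and 40.2 to 49.7 CPM (alveolar). In a bulk sample, fewer cells of a type and less open chromatin per cell cannot be told apart.

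Peaks were called differentially accessible regions (DARs) when they changed at least 1.5-fold with an adjusted p of 0.05 or less in edgeR's quasi-likelihood test over 174193 peaks. Among the 175 tested peaks of the 10 genes, 16 were less and 20 more accessible in unstimulated AhR-KO than in unstimulated WT BMDMs, which is 9.14% and 11.4% of them, where 12.6% and 9.95% of all tested peaks passed in these directions. With another scaling of the libraries (RLE size factors), the split was 14 lower and 28 higher, and that over all tested peaks also shifted, to 11.1% and 11.9%. After LPS, 14 were less and 24 more accessible in AhR-KO than in WT, or 8% and 13.7%, against 13.1% and 13.4% of all tested peaks. LPS lowered 35 and raised 51 peaks in WT (20% and 29.1%, against 21.6% and 25.4%) and lowered 40 and raised 46 in AhR-KO (22.9% and 26.3%, against 21.5% and 27.3%). The shares at these genes lay near the background in both LPS comparisons, and the genotype comparisons had fewer lower peaks than the background.

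The interaction, the genotype difference after LPS minus that without LPS, passed for 10 peaks with a negative and 12 with a positive value (5.71% and 6.86%, against 4.58% and 5.83% of all tested peaks). This split turned to 15 and 10 with RLE size factors, as did that over all tested peaks, to 5.5% and 4.97%. Of the genotype DARs, 9 were lower in AhR-KO in both treatments, out of 16 without and 14 with LPS, and 10 were higher in both, out of 20 and 24. Of the LPS DARs, 26 fell in both genotypes, out of 35 in WT and 40 in AhR-KO, and 42 rose in both, out of 51 and 46. At 56 of the 175 peaks no comparison passed.

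**Figure D1:**
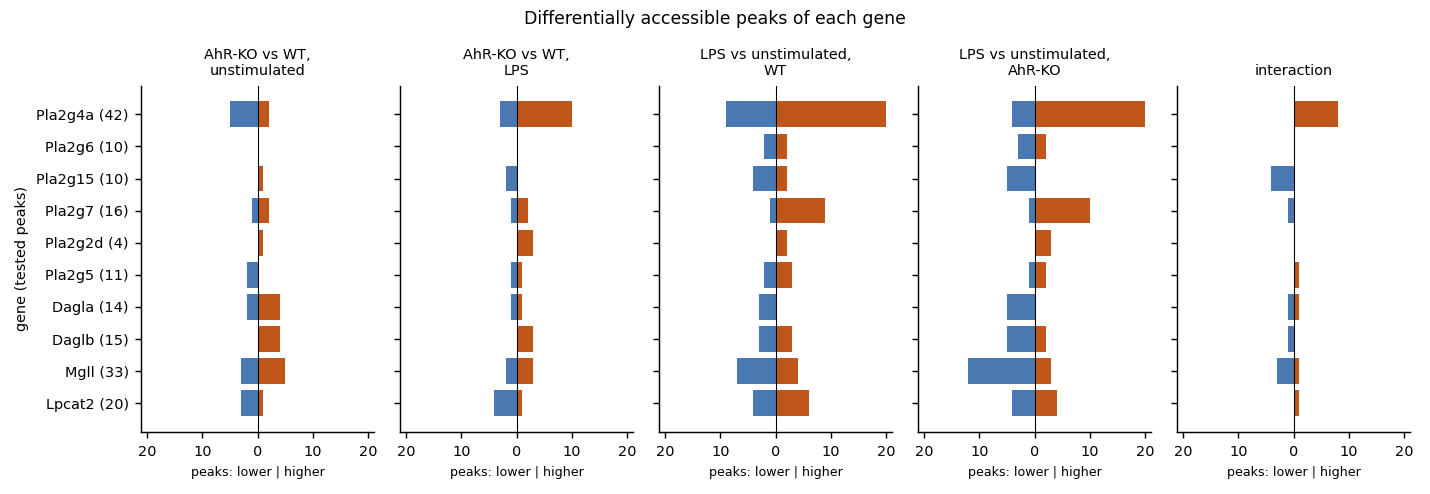
Number of DARs at each of the 10 genes in the 5 comparisons, with lower peaks drawn to the left and higher peaks to the right of 0. Pla2g4a held 20 of the 51 peaks that rose with LPS in WT and 20 of the 46 that rose in AhR-KO.

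The cytosolic phospholipase A2 gene Pla2g4a (chr1:149829618-149961290, minus strand) had the most peaks of the 10 genes, 42 of them tested. LPS raised 20 of these and lowered 9 in WT BMDMs (47.6% and 21.4%, against 25.4% and 21.6% of all tested peaks). It raised 20 and lowered 4 in AhR-KO BMDMs (47.6% and 9.52%, against 27.3% and 21.5%). The direction differed along the gene. In the part of the gene body beyond its midpoint, away from the TSS, LPS raised 10 of 14 peaks in WT and 9 of 14 in AhR-KO and lowered 0 in either genotype, with 0 falls also at an unadjusted p under 0.05 and in DESeq2. Between the TSS and the midpoint, LPS raised 2 and lowered 6 of 16 peaks in WT, and raised 3 and lowered 4 in AhR-KO. In the 20 kb upstream, where Ptgs2, the gene of the inducible cyclooxygenase, is the next protein-coding gene, 5 of 8 peaks rose with LPS in each genotype. Of these 8, 3 fell with LPS in WT and 0 passed as lower in AhR-KO.

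**Figure D2:**
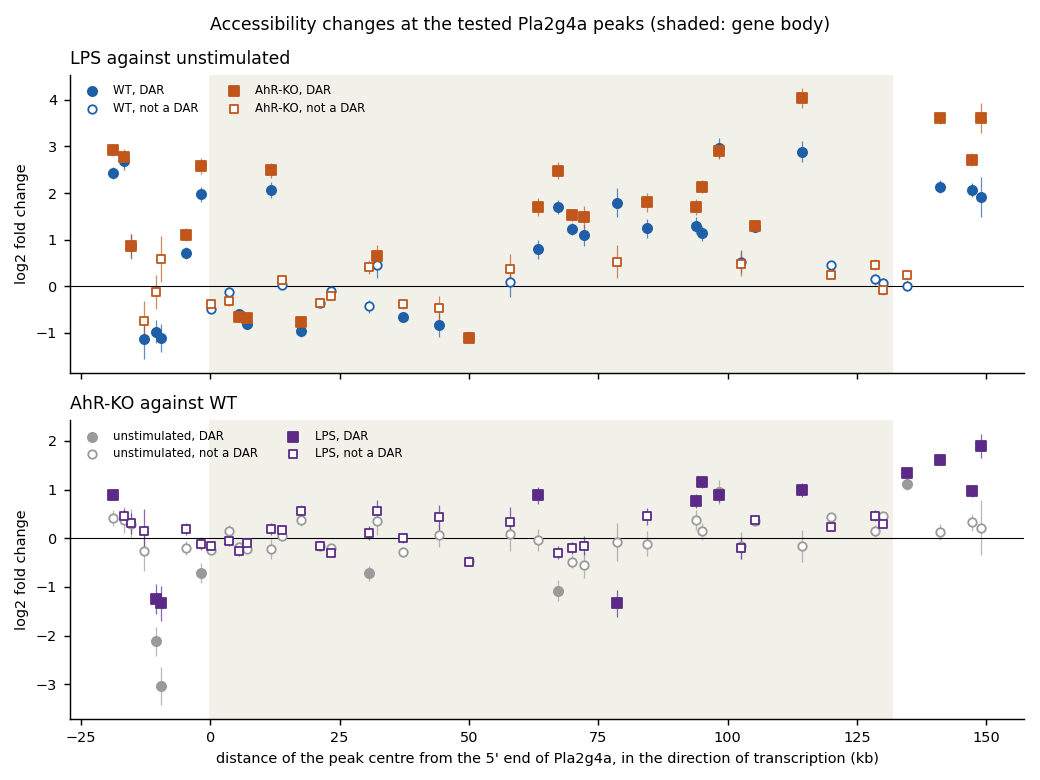
Log2 fold changes of the tested peaks of Pla2g4a, plotted by their distance from the TSS in kb, for LPS against unstimulated in each genotype (top) and for AhR-KO against WT in each treatment (bottom), with the SE as lines and filled symbols for DARs. Beyond the 3′ end of the gene, 3 of 4 peaks rose with LPS in both genotypes, and after LPS all 4 were higher in AhR-KO than in WT. Over all tested peaks, 25.4% and 27.3% rose with LPS in WT and AhR-KO, and 13.4% were higher in AhR-KO after LPS. The peak at 149 kb was called in 1 AhR-KO LPS library only, so it entered the consensus set through the group where it is highest.

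The peak at 140.9 kb from the TSS, just past the 3′ end (chr1:149819433-149821247), had the smallest p of all positive interactions at the 10 genes. It measured between 1.37 and 2.05 CPM (median 1.67) in unstimulated WT and between 1.61 and 2.3 CPM (median 1.75) in unstimulated AhR-KO libraries. After LPS it reached 5.45 to 9.42 CPM (median 7.55) in WT and 18.4 to 26.1 CPM (median 23.2) in AhR-KO. All 6 AhR-KO LPS libraries thus lay above all 6 WT LPS libraries, while the unstimulated groups overlapped. LPS raised the peak 4.41-fold in WT (log2 fold change 2.14 ± 0.136 SE, adjusted p = 4.86e-16) and 12.2-fold in AhR-KO (3.61 ± 0.124, adjusted p = 4.88e-24). The difference between these LPS effects was itself significant (interaction 1.47 ± 0.195, adjusted p = 2.82e-06), and after LPS the peak was 3.03-fold higher in AhR-KO than in WT (adjusted p = 2.88e-14).

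Other peaks of this part of the locus, given here as further examples chosen after their values were seen, moved in the same direction. Not every peak lying among them did. At 130.1 kb the log2 fold change with LPS was 0.068 in WT and -0.088 in AhR-KO, and at 119.9 kb the interaction was -0.21 (adjusted p = 0.164). The peak at 147.3 kb (chr1:149813429-149814602) had mean levels of 2.38 CPM in unstimulated WT, 3.02 CPM in unstimulated AhR-KO, 10.1 CPM in WT after LPS and 19.8 CPM in AhR-KO after LPS, with an interaction of 0.64 ± 0.212 (adjusted p = 0.036). Inside the gene, the intronic peak at 114.4 kb (chr1:149846617-149847168) rose from a median of 0.504 CPM (0.353 to 1.16) to 3.7 CPM (2.88 to 5.71) in WT and from 0.516 CPM (0.263 to 0.636) to 7.64 CPM (5.85 to 10.2) in AhR-KO. That is a 16.4-fold rise with LPS in AhR-KO, and the interaction was 1.15 ± 0.359 on the log2 scale (adjusted p = 0.0266). Of the 42 peaks of Pla2g4a, 8 had a positive interaction DAR in edgeR (19%, against 5.83% of all tested peaks). The negative ones were 0 in edgeR and 0 in DESeq2, with 2 negative values at an unadjusted p under 0.05. Not all 8 were larger gains with LPS in AhR-KO. At 9.5 kb upstream, LPS lowered the peak in WT (-1.11), and its change in AhR-KO did not pass (0.59). At 30.6 kb the changes with LPS were -0.43 in WT and 0.41 in AhR-KO, neither a DAR. At 67.3 kb LPS raised the peak in both genotypes, and AhR-KO was lower without LPS (-1.08) but no DAR after it (-0.30).

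Another peak beyond the 3′ end was a DAR of genotype and not of LPS. At 134.6 kb (chr1:149826044-149827347), WT libraries lay between 4.42 and 7.53 CPM unstimulated and between 4.98 and 8.15 CPM after LPS, whereas AhR-KO libraries lay between 12.3 and 15.7 CPM unstimulated and between 14.1 and 17.7 CPM after LPS. Neither pair of genotype groups overlapped. The log2 fold change was 1.11 ± 0.109 without LPS (adjusted p = 2.81e-10) and 1.35 ± 0.102 with it (adjusted p = 1.18e-12), and the interaction did not pass (0.24 ± 0.149, adjusted p = 0.293).

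Upstream of Pla2g4a, towards Ptgs2, peaks moved in both directions. The peak 18.8 kb upstream (chr1:149979670-149980479) rose with LPS from 0.698 to 1.33 CPM (median 1.05) to 4.82 to 7.21 CPM (median 5.71) in WT, and from 1.24 to 1.56 CPM (median 1.45) to 9.33 to 13 CPM (median 11) in AhR-KO. Its log2 fold change was 2.43 ± 0.136 in WT (adjusted p = 1.31e-17) and 2.92 ± 0.122 in AhR-KO (adjusted p = 1.35e-21), and AhR-KO exceeded WT after LPS by 0.89 ± 0.1 (adjusted p = 5.25e-09). A weak peak 9.5 kb upstream (chr1:149970634-149970855), chosen after its values were seen, went the other way, at 0.582 to 1.98 CPM (median 1.21) in unstimulated WT and 0.0541 to 0.381 CPM (median 0.111) in unstimulated AhR-KO. It was 8.22-fold lower in AhR-KO (log2 fold change -3.04 ± 0.386, adjusted p = 7.03e-08), at levels near 1 CPM in WT. A broad peak was called there in 3 unstimulated WT libraries only, so it entered the consensus set through the group where it is highest.

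The windows below come from 3 of the Pla2g4a peaks that rose with LPS, and are shown because they carry the core of the AhR response element (GCGTG) or the AP-1 motif (TGAGTCA, bound by Fos and Jun proteins). They are mm10 plus strand sequences of 300 bases, the first and second placed on the AhR core as far as the peak allows and the third at the centre of its peak, with matches in capitals and the reverse complement TGACTCA where the match is on the minus strand.
Pla2g4a, 140.9 kb, chr1:149819841-149820140: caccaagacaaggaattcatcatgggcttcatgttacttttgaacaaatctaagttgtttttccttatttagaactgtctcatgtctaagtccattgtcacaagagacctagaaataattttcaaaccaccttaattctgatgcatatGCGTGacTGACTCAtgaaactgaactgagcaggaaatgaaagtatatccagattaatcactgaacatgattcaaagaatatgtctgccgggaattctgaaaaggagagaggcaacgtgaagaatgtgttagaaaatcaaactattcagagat
Pla2g4a, 114.4 kb, chr1:149846617-149846916: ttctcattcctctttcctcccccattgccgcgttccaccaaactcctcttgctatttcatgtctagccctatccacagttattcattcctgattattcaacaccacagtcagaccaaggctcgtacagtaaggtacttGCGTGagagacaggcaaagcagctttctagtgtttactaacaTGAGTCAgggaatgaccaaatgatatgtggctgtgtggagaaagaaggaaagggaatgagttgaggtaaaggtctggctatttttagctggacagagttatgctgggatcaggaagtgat
Pla2g4a, 18.8 kb upstream, chr1:149979925-149980224: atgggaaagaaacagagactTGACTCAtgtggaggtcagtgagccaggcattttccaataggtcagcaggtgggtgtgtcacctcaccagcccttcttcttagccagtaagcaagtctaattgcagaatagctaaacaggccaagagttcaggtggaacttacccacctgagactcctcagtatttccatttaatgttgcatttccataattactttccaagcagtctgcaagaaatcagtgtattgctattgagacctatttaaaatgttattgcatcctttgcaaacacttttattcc
The first window holds both motifs, separated by 2 bases. The second holds both further apart, and the third an AP-1 match only.

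The most significant fall with LPS at Pla2g4a was between the TSS and the midpoint of the gene, 50.1 kb from the TSS (chr1:149910887-149911564). Mean levels were 25.3 CPM in unstimulated WT and 18.4 CPM in unstimulated AhR-KO, and 11.9 and 8.43 CPM after LPS. LPS lowered the peak by 1.09 ± 0.0701 on the log2 scale in WT (adjusted p = 5.86e-16) and by 1.12 ± 0.0729 in AhR-KO (adjusted p = 4.18e-16). The TSS peak of Pla2g4a (chr1:149960365-149962036) was no DAR in any comparison. Its medians were 24.6 and 17.3 CPM in WT without and with LPS, and 21.1 and 15.6 CPM in AhR-KO. Under the fold threshold, its log2 fold change with LPS was -0.48 ± 0.0667 in WT (adjusted p = 9.40e-08) and -0.39 ± 0.0673 in AhR-KO (adjusted p = 4.18e-06). Without LPS, AhR-KO against WT gave -0.24 ± 0.0671 (adjusted p = 0.00353).

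Pla2g6 (chr15:79286228-79328390) encodes a calcium-independent phospholipase A2. Of its 10 tested peaks, 0 were genotype DARs in edgeR or DESeq2 in either treatment, with 3 at an unadjusted p under 0.05 without LPS, all higher in AhR-KO, and 2 lower and 2 higher after LPS. LPS lowered 2 and raised 2 in WT (20% and 20%, against 21.6% and 25.4% of all tested peaks). It lowered 3 and raised 2 in AhR-KO (30% and 20%, against 21.5% and 27.3%). Its TSS peak (chr15:79327365-79328572) measured 21.7 to 24.3 CPM (median 23) in unstimulated WT and 26.6 to 35.8 CPM (median 33.1) in unstimulated AhR-KO. These groups did not overlap, but the 1.39-fold difference stayed under the fold threshold (log2 fold change 0.48 ± 0.0859, adjusted p = 3.05e-05). After LPS, WT (17.3 to 22.7 CPM, median 20) and AhR-KO (16.2 to 23.9 CPM, median 19.2) overlapped. LPS lowered the peak in AhR-KO by 0.73 ± 0.0849 (adjusted p = 2.30e-09). At the other peak named for this gene, 19 kb upstream and nearer to Maff, AhR-KO was higher by 0.48 without LPS, again under the fold threshold.

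Pla2g15 (chr8:106150399-106164715), the lysosomal phospholipase A2, lost accessibility with LPS at its promoter in both genotypes, and lost more in AhR-KO. The TSS peak (chr8:106147995-106150792) measured 35.8 to 40.3 CPM (median 38.6) in unstimulated WT and 45.8 to 63.5 CPM (median 53.9) in unstimulated AhR-KO. After LPS, the levels were 19.2 to 22.1 CPM (median 20) and 17.1 to 20.1 CPM (median 18). The AhR-KO libraries thus lay above all WT libraries without LPS, at a change under the fold threshold (0.50 ± 0.0642), and overlapped with them after LPS. LPS lowered the peak by 0.92 ± 0.0659 in WT (adjusted p = 1.22e-14) and by 1.58 ± 0.0661 in AhR-KO (adjusted p = 1.57e-21), and the interaction was -0.66 ± 0.0926 (adjusted p = 7.49e-06).

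A second peak 4.5 kb upstream of Pla2g15 (chr8:106145437-106146272) had the same order of groups, with medians of 4.74 CPM in unstimulated WT, 8.01 CPM in unstimulated AhR-KO, 2.84 CPM in WT after LPS and 2.37 CPM in AhR-KO after LPS. Here the genotype difference without LPS passed (0.76 ± 0.106, adjusted p = 3.67e-07). The interaction was -0.94 ± 0.158 (adjusted p = 9.72e-05). A broad peak was called here in 5 unstimulated AhR-KO libraries and in 0 libraries of each other group. The site thus entered the consensus set only through the group where it is highest. In all, 4 of the 10 peaks of Pla2g15 had a negative interaction DAR in edgeR (40%, against 4.58% of all tested peaks). The positive ones were 0 in edgeR, in DESeq2 and at an unadjusted p under 0.05. The 4 negative ones include the peak 4.5 kb upstream, which entered the consensus set as just described. They also include a peak 18 kb upstream that lies nearer to Esrp2 (-0.72 ± 0.244, adjusted p = 0.041).

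**Figure D3:**
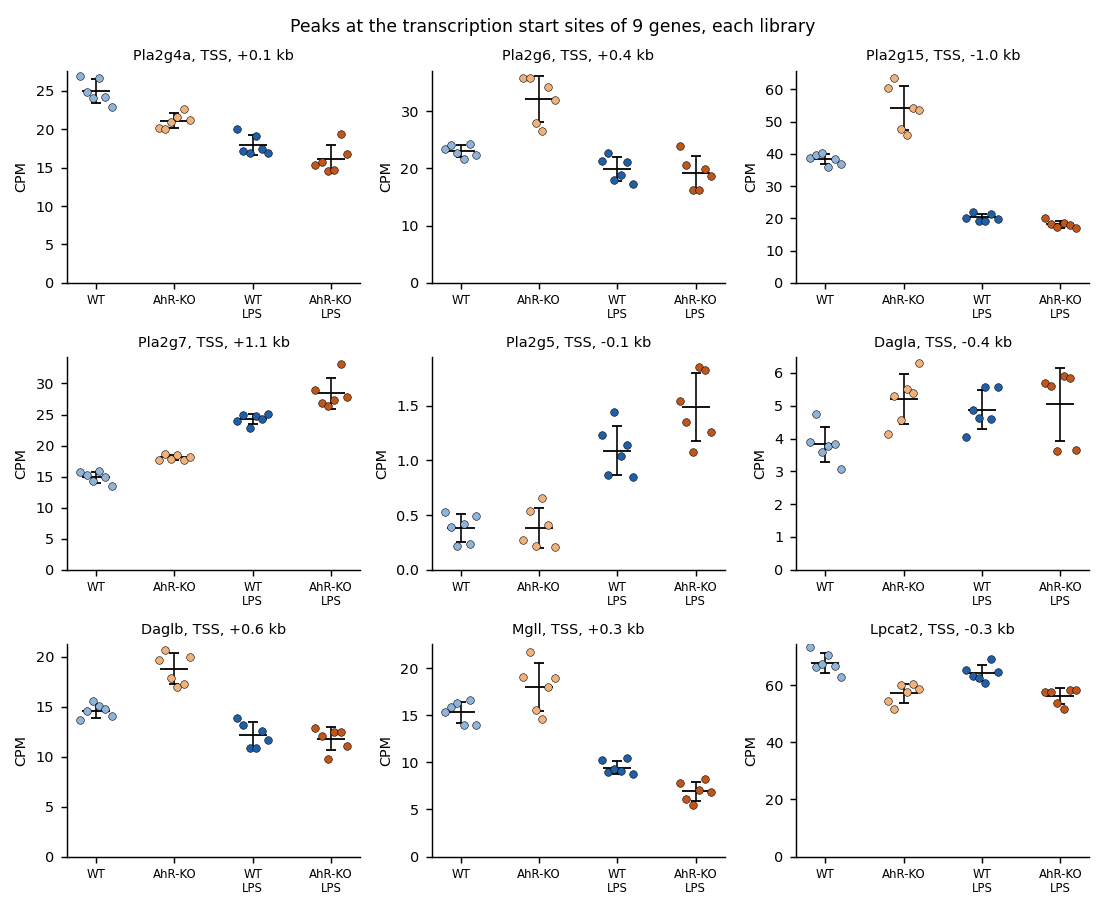
CPM of the TSS peak of 9 of the 10 genes in each library, by group, with each gene on its own axis from 0 and bars for the mean and the SD of 6 libraries. The Pla2g15 and Mgll peaks fall with LPS in both genotypes and the Pla2g7 peak rises in both.

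Across the 9 genes with a TSS peak, 0 TSS peaks were genotype DARs in edgeR with or without LPS, where 4.23% of the 13463 tested TSS peaks of protein-coding genes fell and 1.99% rose without LPS, and 5.51% and 1.47% after it. DESeq2 also gave 0, and at an unadjusted p under 0.05, with no fold threshold, 2 were lower and 6 higher in AhR-KO without LPS and 4 lower and 2 higher after it. LPS lowered 2 and raised 2 of the 9 in WT, and lowered 4 and raised 2 in AhR-KO. Over the 13463 TSS peaks, LPS lowered 6.29% and raised 4.12% in WT, and lowered 11.2% and raised 4.66% in AhR-KO. Introns held 92 of the 175 tested peaks and 17 of the 38 genotype DARs after LPS.

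Among the secreted phospholipases, Pla2g7 (chr17:43568098-43612201) encodes the PAF acetylhydrolase of plasma, which inactivates PAF. LPS opened chromatin at 9 of its 16 tested peaks in WT (56.2%, against 25.4% of all tested peaks) and at 10 in AhR-KO (62.5%, against 27.3%). The TSS peak (chr17:43567629-43570826) rose from 13.5 to 15.9 CPM (median 15.1) to 22.9 to 25.1 CPM (median 24.5) in WT, and from 17.6 to 18.6 CPM (median 17.9) to 26.3 to 33.2 CPM (median 27.6) in AhR-KO. The log2 fold change with LPS was 0.71 ± 0.0601 in WT (adjusted p = 1.18e-12) and 0.66 ± 0.0582 in AhR-KO (adjusted p = 2.20e-12). A peak 14 kb upstream, nearer to Ankrd66 (chr17:43553848-43554288), rose far more, from medians of 0.803 and 1.42 CPM to 6.09 CPM in WT and 12.2 CPM in AhR-KO. These were 7.52-fold and 8.69-fold increases, and AhR-KO was also higher than WT without LPS (0.71 ± 0.185, adjusted p = 0.00229) and after it (0.91 ± 0.106, adjusted p = 9.12e-09). After LPS the lowest AhR-KO library (10.5 CPM) lay above the highest WT library (7.95 CPM).

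Pla2g2d (chr4:138775735-138782046), a secreted enzyme of lymphoid macrophages and dendritic cells with anti-inflammatory lipid products, had only 5 peaks, all of low level, and none at its TSS. A peak 9.5 kb upstream and nearer to Pla2g2f (chr4:138766004-138766538) was higher in AhR-KO, at 0.782 to 1.78 CPM (median 1.37) against 0.264 to 0.814 CPM (median 0.515) in WT without LPS. After LPS it stood at 0.903 to 1.58 CPM (median 1.3) against 0.489 to 0.706 CPM (median 0.615). The groups overlapped slightly without LPS and did not overlap after it, with log2 fold changes of 1.43 ± 0.227 (adjusted p = 3.31e-06) and 1.03 ± 0.198 (adjusted p = 5.28e-05). A peak 5.8 kb upstream, chosen after its values were seen, rose with LPS by 2.86 (log2 scale) in WT and 2.84 in AhR-KO, from means of 0.193 and 0.187 CPM.

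Pla2g5 (chr4:138799244-138863482), the group V secreted phospholipase found in macrophages, held one of the 2 peaks with the smallest p among those lower in unstimulated AhR-KO. The intronic peak 56.3 kb from the TSS (chr4:138806887-138807523) measured 1.51 to 3.3 CPM (median 1.78) in unstimulated WT, and only 0.174 to 0.379 CPM (median 0.289) in unstimulated AhR-KO. After LPS it fell in WT to 0.432 to 0.945 CPM (median 0.539) and stood at 0.122 to 0.554 CPM (median 0.153) in AhR-KO. Unstimulated WT thus stood apart from the other groups, 6.92-fold above unstimulated AhR-KO (log2 fold change -2.79 ± 0.291, adjusted p = 1.05e-09), while the groups overlapped after LPS (-1.26 ± 0.317, adjusted p = 0.00132). LPS lowered the peak in WT by 1.66 ± 0.243 (adjusted p = 2.43e-07). The interaction was 1.53 ± 0.462 (adjusted p = 0.021), and it no longer passed without AhR-KO LPS library 2 or 4 (1.34, adjusted p = 0.0629, and 1.16, adjusted p = 0.099).
Pla2g5, intron, chr4:138807055-138807354: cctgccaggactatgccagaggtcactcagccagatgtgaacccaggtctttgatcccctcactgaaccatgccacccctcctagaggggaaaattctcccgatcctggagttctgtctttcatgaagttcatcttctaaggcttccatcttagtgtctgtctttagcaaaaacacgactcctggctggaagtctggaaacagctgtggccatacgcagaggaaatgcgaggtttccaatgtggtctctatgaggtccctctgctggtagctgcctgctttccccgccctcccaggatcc
This window around the centre of the peak, mm10 plus strand, is shown for its large genotype difference and holds none of the motifs searched. The whole peak has 1 AP-1 match and 1 PU.1 match (GAGGAAGT) outside the window, and no AhR core.

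At the TSS of Pla2g5 (chr4:138863462-138863623), a weak peak that was called in a single library rose with LPS from a median of 0.403 to 1.09 CPM in WT and from 0.343 to 1.44 CPM in AhR-KO (log2 fold changes 1.49 ± 0.255 and 1.96 ± 0.239, adjusted p = 3.78e-06 and 4.46e-09). A stronger peak 1.5 kb upstream, chosen after its values were seen, rose from a mean of 0.91 to 5.74 CPM in WT and from 1.39 to 8.85 CPM in AhR-KO. Over the 31 tested peaks of the 3 secreted enzymes, LPS raised 14 and lowered 3 in WT (45.2% and 9.68%, against 25.4% and 21.6% of all tested peaks). In AhR-KO it raised 15 and lowered 2 (48.4% and 6.45%, against 27.3% and 21.5%). The median log2 fold changes were 0.43 in WT and 0.49 in AhR-KO, against -0.014 and 0.046 over all tested peaks. Pla2g7 held 9 of the 14 peaks raised in WT and 10 of the 15 raised in AhR-KO. At the 11 tested peaks of Pla2g5, LPS raised 3 and lowered 2 in WT (27.3% and 18.2%, median 0.16). There it raised 2 and lowered 1 in AhR-KO (18.2% and 9.09%, median 0.08).

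At the 3 genes of the diacylglycerol route, most of the 62 tested peaks were no LPS DARs. In WT, LPS lowered 13 (21%, near the 21.6% of all tested peaks) and raised 7 (11.3%, against 25.4%), with Daglb at 3 and 3. In AhR-KO, LPS lowered 22 (35.5%, against 21.5%) and raised 5 (8.06%, against 27.3%), and the median log2 fold change was -0.32, with -0.21 in WT. Without LPS, 13 of the peaks were higher and 5 lower in AhR-KO than in WT (21% and 8.06%, against 9.95% and 12.6%), with a median of 0.33 against -0.021 over all tested peaks. After LPS these numbers were 7 and 3 (11.3% and 4.84%, against 13.4% and 13.1%), with a median of 0.08 against 0.021.

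Dagla (chr19:10245265-10304877), the diacylglycerol lipase best known from neurons, had an intronic peak 7.7 kb from its TSS (chr19:10296880-10297502) that was 3.05-fold higher in unstimulated AhR-KO. It measured 1.66 to 2.28 CPM (median 2.1) in unstimulated WT and 5.74 to 6.77 CPM (median 6.15) in unstimulated AhR-KO, and 1.14 to 1.69 CPM (median 1.31) and 2.55 to 3.38 CPM (median 2.74) after LPS. No library of one genotype reached the range of the other in either treatment. The log2 fold changes were 1.61 ± 0.118 (adjusted p = 3.82e-13) and 1.02 ± 0.121 (adjusted p = 1.55e-08). The interaction of -0.59 ± 0.171 (adjusted p = 0.0154) lay at the edge of the fold threshold. It no longer passed in 8 fits that left out 1 library (-0.52 to -0.58), which were those without unstimulated WT libraries 2 or 3, unstimulated AhR-KO libraries 1 or 3, WT LPS libraries 3 or 5 and AhR-KO LPS libraries 2 or 6. The TSS peak of Dagla was low, with medians of 3.81 to 5.65 CPM, and was no DAR.

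Beyond the 3′ end of Dagla, at 62.9 kb and nearer to Myrf, a peak (chr19:10241705-10242189) was lower in AhR-KO in both treatments. WT libraries measured 1.05 to 2.97 CPM (median 1.73) unstimulated and 0.89 to 3.78 CPM (median 2.84) after LPS, and AhR-KO libraries 0.435 to 0.866 CPM (median 0.605) and 0.446 to 0.8 CPM (median 0.542). The genotypes did not overlap in either treatment, and AhR-KO was 4.47-fold lower after LPS (log2 fold change -2.16 ± 0.283, adjusted p = 3.30e-07). Without LPS the value was -1.62 ± 0.308 (adjusted p = 9.23e-05).

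Daglb (chr5:143464584-143505942), the diacylglycerol lipase active in macrophages, had 4 genotype DARs without LPS among 15 peaks and 3 after it, all higher in AhR-KO. These are 26.7% and 20% of its peaks, against 9.95% and 13.4% of all tested peaks. DESeq2 gave 0 lower ones as well, and 1 peak was lower without LPS and 0 after it at an unadjusted p under 0.05. An exonic peak 23 kb from the TSS (chr5:143486884-143488260) measured 3.49 to 5.2 CPM (median 4.01) in WT and 7.56 to 10.6 CPM (median 8.4) in AhR-KO without LPS, and 1.98 to 2.9 CPM (median 2.65) and 4 to 6.1 CPM (median 4.79) after it. AhR-KO exceeded WT without overlap in both treatments, by 1.09 ± 0.118 (adjusted p = 2.46e-09) and 0.91 ± 0.121 (adjusted p = 1.41e-07) on the log2 scale, while LPS lowered the peak in both genotypes. The TSS peak (chr5:143464160-143466260) fell with LPS in AhR-KO, from 17 to 20.7 CPM (median 18.8) to 9.75 to 12.9 CPM (median 12.3), a log2 change of -0.66 ± 0.0758 (adjusted p = 1.03e-09). In WT its medians were 14.7 and 12.2 CPM.

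Mgll (chr6:88724412-88828360), the monoacylglycerol lipase that ends the route with free arachidonic acid, lost promoter accessibility with LPS, and more so in AhR-KO. Its TSS peak (chr6:88724191-88725172) fell from 14 to 16.6 CPM (median 15.6) to 8.77 to 10.5 CPM (median 9.17) in WT, and from 14.6 to 21.7 CPM (median 18.5) to 5.42 to 8.18 CPM (median 6.95) in AhR-KO. The log2 fold changes were -0.70 ± 0.0915 (adjusted p = 2.95e-08) and -1.37 ± 0.093 (adjusted p = 1.42e-15), with an interaction of -0.68 ± 0.13 (adjusted p = 0.000459). The unstimulated genotypes overlapped, and after LPS the highest AhR-KO library stayed under the lowest WT library at a difference under the fold threshold (-0.45). An intronic peak 2.5 kb downstream of the TSS (chr6:88726259-88727651) fell further, from means of 13.4 and 17.2 CPM to 5.35 CPM in WT and 4.7 CPM in AhR-KO.

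Further inside Mgll, 61.9 kb from the TSS and nearer to Abtb1 (chr6:88786042-88786614), unstimulated AhR-KO stood apart. The intronic peak measured 2.84 to 5.5 CPM (median 3.39) in unstimulated WT, 9.83 to 13.7 CPM (median 11.3) in unstimulated AhR-KO, 2.12 to 3.52 CPM (median 2.63) in WT after LPS and 3.76 to 6.04 CPM (median 4.32) in AhR-KO after LPS. The genotype difference was 3.16-fold without LPS (log2 fold change 1.66 ± 0.145, adjusted p = 3.06e-11) and shrank after it (0.81 ± 0.147), with an interaction of -0.85 ± 0.207 (adjusted p = 0.00467).

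Upstream of Mgll, at 6.1 kb (chr6:88717879-88718655), the pattern was reversed. WT libraries measured 0.842 to 1.58 CPM (median 1.01) without LPS and 1.38 to 4.69 CPM (median 3.07) with it, and AhR-KO libraries 0.182 to 0.565 CPM (median 0.333) and 0.489 to 1.04 CPM (median 0.868). AhR-KO lay below WT without overlap in both treatments, with log2 fold changes of -1.65 ± 0.328 (adjusted p = 0.000116) and -1.85 ± 0.23 (adjusted p = 6.55e-08). LPS raised the peak in both genotypes.

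The peaks that were lower in AhR-KO beyond Dagla and upstream of Mgll each hold 1 AhR response element core, and the windows below, on the mm10 plus strand, were placed on it and show it in capitals. The Mgll window does not reach the centre of its peak.
Dagla, downstream, chr19:10241856-10242155: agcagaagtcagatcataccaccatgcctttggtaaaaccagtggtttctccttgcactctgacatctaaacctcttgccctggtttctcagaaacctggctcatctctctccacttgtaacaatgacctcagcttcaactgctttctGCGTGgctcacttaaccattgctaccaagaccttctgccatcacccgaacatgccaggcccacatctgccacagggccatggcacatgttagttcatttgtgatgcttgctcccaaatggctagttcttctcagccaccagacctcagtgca
Mgll, upstream, chr6:88718291-88718590: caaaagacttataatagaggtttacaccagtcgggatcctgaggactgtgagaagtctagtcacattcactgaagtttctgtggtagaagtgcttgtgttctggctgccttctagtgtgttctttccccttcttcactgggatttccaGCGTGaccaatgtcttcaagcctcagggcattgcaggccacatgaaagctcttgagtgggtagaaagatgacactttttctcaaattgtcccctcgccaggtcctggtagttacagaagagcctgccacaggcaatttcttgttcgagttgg

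In WT after LPS, these 2 peaks were spread widely, and so was the TSS peak of Ccr7, the chemokine receptor of migrating dendritic cells. From WT LPS library 1 to 6, the Dagla peak measured 3.42, 3.36, 0.89, 1.89, 2.32 and 3.78 CPM. The Mgll peak measured 3.9, 3.6, 1.38, 2.54, 2.24 and 4.69 CPM, and the Ccr7 TSS peak 8.39, 8.59, 3.27, 7.07, 4.47 and 10.5 CPM. Library 3 was lowest and library 6 highest at all 3 peaks, which were set side by side after their values were seen. The other dendritic cell markers did not share both extremes. Flt3 was lowest in library 5 (8.12 CPM) and highest in library 2 (15.2 CPM). Dpp4 was lowest in library 3 (4.05 CPM) and highest in library 1 (7.94 CPM), and Zbtb46 lowest in library 1 (16.4 CPM) and highest in library 6 (22.8 CPM). Libraries 1, 2 and 6 were nonetheless above libraries 3, 4 and 5 at Flt3 (14.5, 15.2 and 12.8 against 8.56, 10.3 and 8.12 CPM). The same held at Dpp4 (7.94, 6.66 and 7.27 against 4.05, 6.06 and 4.47 CPM) and at the 3 peaks above, but not at Zbtb46. Group means of the Ccr7 peak were 0.94 CPM in unstimulated WT, 0.551 CPM in unstimulated AhR-KO, 7.05 CPM in WT after LPS and 2.46 CPM in AhR-KO after LPS. The part of other cell types in these peaks was not tested.

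**Figure D4:**
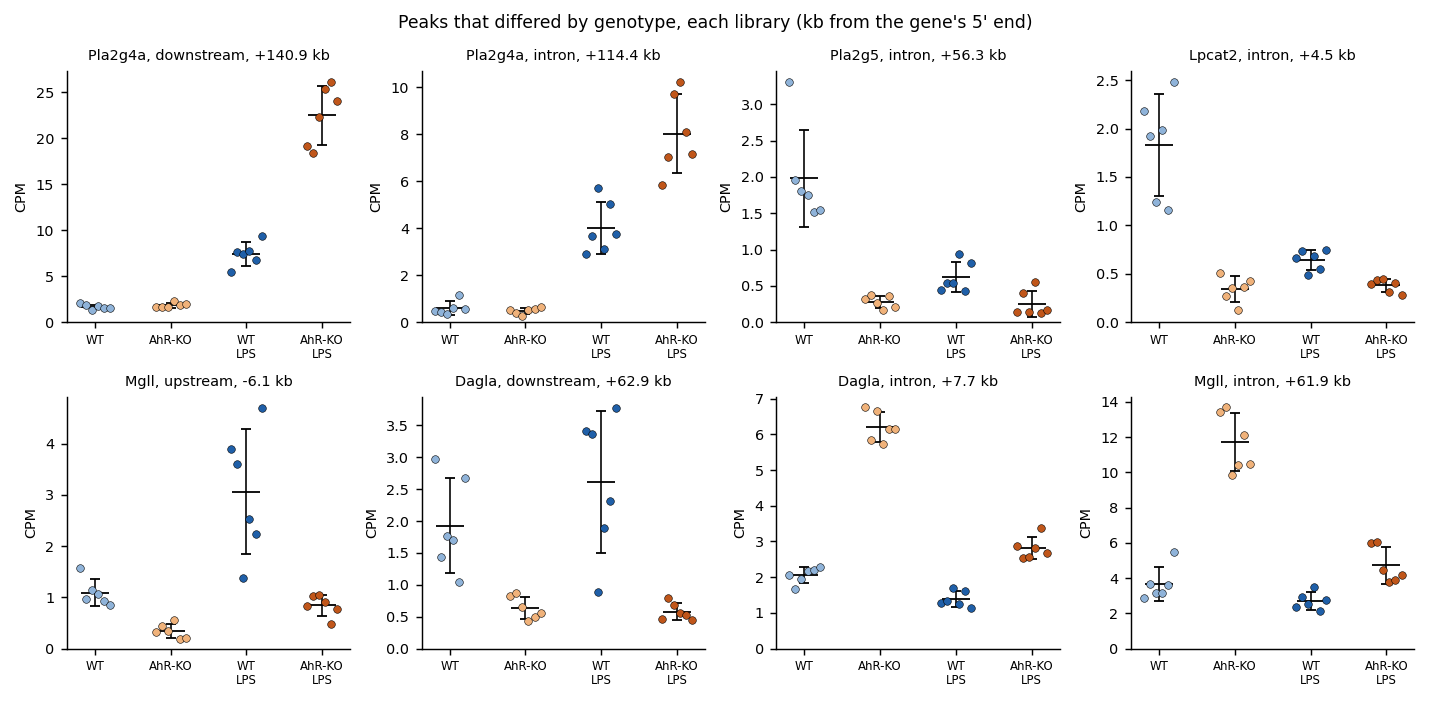
CPM per library at peaks with large genotype differences, by group, with bars for the mean and the SD of 6 libraries. At the Pla2g5 and Lpcat2 introns unstimulated WT stands above the other groups, whereas at the Dagla and Mgll introns unstimulated AhR-KO does.

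Lpcat2 (chr8:92855339-92919279) had 20 tested peaks. Of these, 3 were lower and 1 higher in AhR-KO without LPS (15% and 5%, against 12.6% and 9.95% of all tested peaks). After LPS, 4 were lower and 1 higher (20% and 5%, against 13.1% and 13.4%). An intronic peak 4.5 kb from the TSS measured 1.16 to 2.48 CPM (median 1.95) in unstimulated WT, 0.13 to 0.511 CPM (median 0.358) in unstimulated AhR-KO, 0.488 to 0.75 CPM (median 0.672) in WT after LPS and 0.284 to 0.451 CPM (median 0.401) in AhR-KO after LPS. Unstimulated WT stood above the other groups, 5.31-fold over unstimulated AhR-KO (log2 fold change -2.41 ± 0.234, adjusted p = 2.14e-10). LPS lowered the peak in WT by 1.52 ± 0.201 (adjusted p = 3.32e-08) while the change in AhR-KO did not pass (0.14 ± 0.284), and the interaction was 1.66 ± 0.35 (adjusted p = 0.00122). Of this peak, 62.7% was repeat-masked, which bears on how well reads can be placed there.

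The TSS peak of Lpcat2 (chr8:92853139-92856847) measured 63 to 73.3 CPM (median 67) in unstimulated WT and 51.8 to 60.4 CPM (median 58.2) in unstimulated AhR-KO, and 60.9 to 69.2 CPM (median 63.9) and 51.8 to 58.3 CPM (median 57.7) after LPS. AhR-KO lay below WT without overlap in both treatments, but the changes were small (-0.25 ± 0.0496, adjusted p = 0.000111, and -0.19, adjusted p = 0.00144). As further examples chosen after their values were seen, an intronic peak at 42.7 kb had genotype log2 fold changes of -1.03 ± 0.161 without LPS (adjusted p = 2.71e-06) and -0.97 ± 0.17 after it (adjusted p = 1.43e-05), and a peak 5.6 kb upstream was higher in AhR-KO by 0.75 and 0.63.

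The intronic peaks of Pla2g5 and Lpcat2 and the weak upstream peak of Pla2g4a were all highest in unstimulated WT. Among markers of other cells, S100a9, a granulocyte and monocyte gene, was likewise highest in unstimulated WT at its TSS peak, with means of 3.13, 1.19, 1.24 and 0.568 CPM in unstimulated WT, unstimulated AhR-KO, WT after LPS and AhR-KO after LPS. Its partner S100a8, the only other gene of that list with a TSS peak, was highest in unstimulated AhR-KO (20.2, 24, 16.2 and 17.2 CPM). Of the dendritic cell genes, Dpp4 was also highest in unstimulated WT (9.08, 5.35, 6.07 and 3.87 CPM). The dendritic cell gene Flt3 (9.07, 4.09, 11.6 and 4.73 CPM) and the progenitor and mast cell gene Kit (11.1, 4.79, 14 and 5.92 CPM) were lower in AhR-KO in both treatments, whereas the dendritic cell gene Zbtb46 was highest in unstimulated AhR-KO (22.4, 26.6, 18.8 and 18.2 CPM) and the mast cell genes Cpa3 and Mcpt4 had no TSS peak. Over whole lists, summed TSS peaks of 4 dendritic cell genes ran from 31.8 to 46.5, 33.3 to 39.8, 33.2 to 53.4 and 25.7 to 33.3 CPM in the same order of groups, and those of 2 of 5 neutrophil and progenitor genes from 19.8 to 26.1, 23.8 to 27.7, 13.8 to 21.1 and 16.4 to 18.9 CPM. The defining neutrophil and progenitor genes Ly6g, Mpo and Elane had no TSS peak. The part of such cells in the genotype DARs was not tested.

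**Figure D5:**
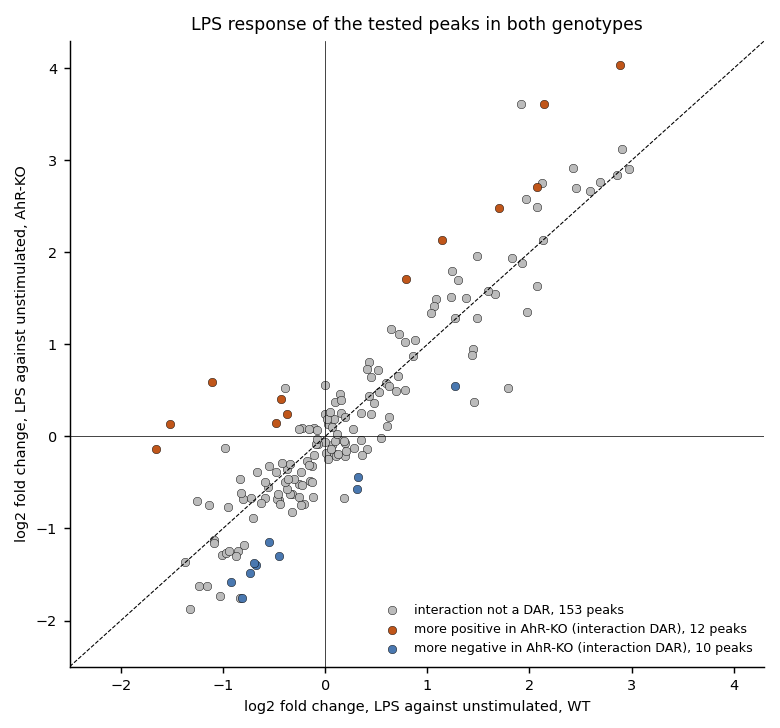
Log2 fold change with LPS in AhR-KO against that in WT for the 175 tested peaks of the 10 genes, with the interaction DARs marked. Points above the diagonal, which marks equal changes, rose more or fell less with LPS in AhR-KO, and points under it, such as the TSS peaks of Pla2g15 and Mgll, fell more or rose less.

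Sequence motifs were counted as exact matches on either strand in the whole peaks. AP-1 (TGAGTCA) occurred in 18 of the 42 peaks that rose with LPS in both genotypes (42.9%, against 45.3% of all 36436 such peaks) and in 1 of the 26 that fell in both (3.85%, against 10.3% of all 27260 such peaks), while it occurred in 23.7% of all consensus peaks. The AhR core GCGTG occurred in 3 of 9 peaks that were lower in AhR-KO in both treatments (33.3%, against 25.4% of all 12093 such peaks), in 3 of 10 that were higher in both (30%, against 23.6% of all 8848 such peaks), and in 29.1% of all consensus peaks. Whole peaks differ in length. In windows of 300 bases at peak centres, it occurred in 1 of the 9 lower peaks (11.1%, against 15.1%). In such windows it occurred in 2 of the 10 higher peaks (20%, against 12.9%), and in 16% of all consensus peaks. A PU.1 motif (GAGGAAGT) was found in 28 of the 182 peaks (15.4%, against 13% of all) and an NF-kB motif (GGGACTTTC) in 1 (0.549%, against 1.31%). Each match is a description of the sequence and not of binding.

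Other genes of the pathway were counted in the same windows. Over all tested peaks, LPS lowered 21.6% and raised 25.4% in WT, and lowered 21.5% and raised 27.3% in AhR-KO. AhR-KO was lower at 12.6% and higher at 9.95% of them without LPS, and at 13.1% and 13.4% after it. At 14 other phospholipase A2 genes with 98 tested peaks, LPS lowered 19 and raised 16 in WT (19.4% and 16.3%). It lowered 29 and raised 16 in AhR-KO (29.6% and 16.3%). AhR-KO was lower at 4 and higher at 11 without LPS (4.08% and 11.2%), and at 11 and 9 after it (11.2% and 9.18%). At 13 phospholipase C and D genes, which make diacylglycerol and phosphatidic acid, 23 of 300 tested peaks were lower and 55 higher in AhR-KO after LPS (7.67% and 18.3%). Of these 55, 34 lay at Plcb1. At 5 other endocannabinoid enzymes, LPS lowered 27 of 77 tested peaks and raised 8 in WT (35.1% and 10.4%). In AhR-KO it lowered 28 and raised 8 (36.4% and 10.4%). At 10 other genes of arachidonate activation and reacylation, AhR-KO was lower at 27 and higher at 15 of 161 tested peaks without LPS (16.8% and 9.32%), and lower at 32 and higher at 9 after it (19.9% and 5.59%). The acyltransferase genes Mboat1 (7 lower and 1 higher after LPS) and Mboat2 (4 lower) and the acyl-CoA synthetase gene Acsl1 (6 lower) held 17 of these 32. At 5 genes of PAF breakdown and its receptor, with 50 tested peaks, 4 were lower and 3 higher in AhR-KO after LPS (8% and 6%). At 3 modulators of phospholipase A2, with 42 tested peaks, these numbers were 2 and 4 (4.76% and 9.52%).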

How the data were processed

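ATAC-seq libraries were prepared from 6 animals per group. The authors trimmed, aligned and filtered the reads with the nf-core atacseq pipeline on mm10, called broad peaks in each library with MACS2 and merged them into 1 consensus set. The deposited table holds raw counts of read pairs per consensus peak, made per the file headers with featureCounts 2.0.1, with every overlapping peak credited and a fraction of at least 0.2 of a pair inside the peak. The authors also deposited 1 broad peak list per library, whose last column is the -log10 of the q-value. It was used only to count the libraries in which a peak was called, by an overlap of at least 1 base. Starts in the count table were counted from 0 and were raised by 1.

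Counts were tested in R 4.3.3 with edgeR 4.0.16 (filterByExpr, TMM, robust quasi-likelihood fit of all 24 libraries on the group), two-sided, with Benjamini-Hochberg adjustment over 174193 peaks. Adjusted p-values are from this fit. SE was the absolute log2 fold change divided by the square root of F. Alternatives were RLE size factors, DESeq2 1.42.0, other filters, thresholds and windows, a replicate block and fits without 1 library. Peaks named were the TSS peak of each gene, the 2 DARs of smallest p per direction and comparison, and per gene the other peak with the smallest genotype p. Exceptions are marked. The genes and lists were chosen with earlier results of these data known. Sequences are from GRCm38, the assembly of mm10. The sequence of 1 Lpcat2 peak is not reported here. The test was tried on simulated counts. Intervals were not computed for counts of peaks, and depth limits the peaks near or under 1 CPM.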

Additional observations from a re-analysis of the deposited data

Results flagged for a closer look

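At 8 peaks of the 10 genes named by the rule, the effect of LPS differed between the genotypes in edgeR's test of the difference itself. After LPS, AhR-KO gained relative to WT at the Pla2g4a peak 140.9 kb from the TSS (interaction 1.47, log2 scale), at the Lpcat2 intron (1.66) and at the Pla2g5 intron (1.53). It lost relative to WT at the TSS peaks of Pla2g15 (-0.66) and Mgll (-0.68), at the peak upstream of Pla2g15 (-0.94), and at the introns of Mgll (-0.85) and Dagla (-0.59). At the introns of Lpcat2 and Pla2g5, unstimulated WT had been the highest group and AhR-KO stayed low in both treatments. In 4 of 100 sets of 6 libraries, 1 library lay far from the other 5, where chance alone marks about 1 in 20 sets. Unstimulated WT library 1 stood at 3.3 CPM at the Pla2g5 intron, with the others between 1.51 and 1.96, and at 26.9 CPM at the Pla2g4a peak at 50.1 kb, with the others between 24.4 and 25.4. Unstimulated WT library 6 stood at 5.5 CPM at the Mgll intron, against 2.84 to 3.66. WT LPS library 1 stood at 1.98 CPM at the Daglb exon, against 2.58 to 2.9.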

How the results depend on the processing

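Counts below are lower then higher peaks of the 10 genes. With no fold threshold, the genotype counts rose from 16 and 20 to 27 and 54 without LPS and from 14 and 24 to 24 and 50 after it, the peaks lowered by LPS from 35 to 59 (WT) and from 40 to 61 (AhR-KO), and the negative interactions from 10 to 20. With a 2-fold threshold, they fell to 9 and 6 without LPS, 7 and 7 after it, 13 (lower) for LPS in WT, 21 (lower) in AhR-KO, and 0 and 6 for the interaction, where edgeR's 0 stands beside 20 at an adjusted p alone. A window of 5 kb gave 9 and 14 for genotype after LPS, and 32 and 30 peaks raised by LPS in WT and AhR-KO. Keeping only peaks nearest to the gene's own TSS gave 10 and 11 for genotype without LPS, 7 lower after it, 33 raised by LPS in WT and 5 negative interactions. A mean of at least 1 CPM left 5 lower peaks for genotype after LPS. Leaving out 1 library gave 14 to 17 and 17 to 25 for genotype without LPS, 13 to 16 and 22 to 26 after it, 33 to 36 and 49 to 52 for LPS in WT, 36 to 42 and 46 to 49 in AhR-KO, and 7 to 14 and 8 to 13 for the interaction. The cause of these shifts was not tested. Replicate numbers are shared between groups, and the labels tie them to nothing. Deviations of same-numbered libraries correlated at 0.049 to 0.343 between the WT groups (5 of 6 over 0.1, 4 of 6 best with their own number), at 0.009 to 0.21 between the AhR-KO groups (3 of 6 over 0.1, 3 of 6 best), and at -0.144 to 0.268 between genotypes. Since not every pair passed 0.1, the numbers were not taken as a pairing. A replicate block gave 16 and 20, 14 and 23, 35 and 51, 40 and 46, and 11 and 12. DESeq2 gave 14 and 27 for genotype without LPS and 14 and 10 for the interaction. Of 3702 alternative values for named peaks, 3681 kept direction and call, 12 lost the call, 9 gained it and 0 reversed. Of these, 10 of the 12 were the Dagla intron interaction, which also missed the fold threshold with a replicate block (-0.58) and at a mean of at least 1 CPM (-0.56), and 2 the Pla2g5 intron interaction. The Mgll peak at 2.5 kb gained an interaction call with RLE size factors and DESeq2 (-0.59 in both).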
